A study of Mus musculus with 12 samples.

Results

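The genes described here are 9 members of the tumour necrosis factor (TNF) superfamily and its receptors: the ligands Tnf, Tnfsf9, Tnfsf10, Tnfsf12, Tnfsf13b and Tnfsf14, and the receptors Tnfrsf1a, Tnfrsf1b and Fas. They were chosen by name from the 40847 rows of the count table, and all 9 were among the 14749 genes with enough counts to be tested. Earlier results of these data were known when these genes and the lists below were chosen. Their counts beside the shares of all genes are thus a description. Polyadenylated RNA was sequenced from mouse fetal liver alveolar-like macrophages (FLAMs), which are cells isolated from fetal liver and kept in culture in the growth factor GM-CSF. All 4 groups received 30 ng/ml recombinant mouse GM-CSF. The untreated group received nothing more, the TGFβ group was kept with 20 ng/ml recombinant human TGFβ1, the Pam3 group was given 25 ng/ml Pam3CSK4 (Pam3), a synthetic lipopeptide that activates Toll-like receptor 2 (TLR2), for 18 h, and the Pam3+TGFβ group had both. Each group had 3 libraries, and the labels do not say whether these came from separate cultures or animals, so the p-values measure the spread between these samples only. According to the series title, the study asks how TGFβ alters what TLR2 activation induces in these cells.

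TNF superfamily ligands are mostly made as membrane proteins that act on a neighbouring cell or, once cleaved, as soluble trimers. Their receptors either carry a death domain, which can recruit caspases, or bind TRAF adaptors that activate NF-κB and MAP kinases. Macrophages are a main source of TNF, and TLR2 signalling through MyD88 is a classical inducer of Tnf transcription, while TGFβ maintains alveolar macrophages in the lung.

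Most of these genes were lower with TGFβ alone, and most rose when Pam3 was given to cells kept with TGFβ. With TGFβ and no Pam3, 8 of 9 members were lower than in untreated cells and Tnfsf13b was higher, where 51.0% of all tested genes passed the test (28.1% lower, 22.9% higher). With Pam3 given in the presence of TGFβ, 6 members rose and none fell, where 38.5% of genes passed (20.4% higher, 18.1% lower), while Pam3 without TGFβ raised 4 and lowered 1, where 18.3% passed (9.62% higher, 8.66% lower). The response to Pam3 was larger with TGFβ than without it for 5 members (Tnf, Tnfsf10, Tnfrsf1a, Tnfrsf1b and Fas) and smaller for none, by the interaction of the treatments, which 15.9% of all genes passed (10.3% higher, 5.67% lower). Of the interaction calls over all genes 64.5% were higher, and 53.4% with upper-quartile scaling, and for Pam3 with TGFβ these shares were 53.0% and 41.5%. With Pam3 present in both groups, TGFβ raised 4 members (Tnf, Tnfsf10, Tnfsf13b and Tnfrsf1a) and lowered 4 (Tnfsf9, Tnfsf12, Tnfsf14 and Tnfrsf1b), where 45.3% of genes passed (21.5% higher, 23.8% lower). The median log2 fold change of the members was -1.10 for TGFβ alone, 0.13 for Pam3 without TGFβ and 1.31 for Pam3 with TGFβ, and over all tested genes these medians were -0.01, 0.00 and -0.02. A gene was called where the edgeR quasi-likelihood test gave an adjusted p under 0.05 over all 14749 genes, and the comparisons share libraries, so their counts are not independent. In bulk RNA a change in the number of expressing cells and a change in RNA per cell cannot be told apart.

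Library totals ran from 34036650 to 44374115 counts. RNAs that lack poly(A) tails took 0.196% to 8.28% of the counts, and this share split the replicates of 3 groups: 0.29%, 0.354% and 6.31% in untreated cells, 6.27%, 0.196% and 8.28% with TGFβ, and 0.24%, 5.02% and 7.85% with Pam3, against 0.394% to 1.63% with both. With that share as a covariate, an alternative added after the data were seen, the calls of the members in the 6 comparisons stayed as they were, except that Tnfsf9 lost its Pam3 response with TGFβ (adjusted p = 0.0539) and Tnfrsf1a its TGFβ effect with Pam3 (adjusted p = 0.0723). All 8 listed macrophage markers and all 8 alveolar macrophage markers were detected. The macrophage list, made up mostly of the lysozyme gene Lyz2, summed to 31738 to 35961 CPM (counts scaled to library size) in untreated cells, 16620 to 17531 under TGFβ, 34684 to 35729 under Pam3 and 25549 to 26235 under both, and the alveolar list to 7717 to 8183, 7343 to 7771, 8633 to 9201 and 7663 to 7929 CPM. Within the alveolar list the group means moved in opposite ways from untreated cells. With TGFβ alone Marco (2146.7 to 123.3 CPM), Fabp4 (31.1 to 0.132), Mrc1 (1864.2 to 970.3) and Itgax (335.3 to 167.9) fell. Siglecf (32.1 to 300.4), Chil3 (2953.9 to 5038.0), Car4 (447.7 to 774.5) and Pparg (116.8 to 224.7) rose. In the macrophage list Itgam went from 1088.1 to 38.8 CPM, while Fcgr1 went from 81.1 to 91.3. Neutrophil markers summed to at most 16.9 CPM with Mpo at 0 in all libraries, dendritic cell markers to at most 5.65 CPM, and T and NK cell markers to at most 3.67 CPM with Cd3e and Nkg7 at 0. The B cell, mast cell, erythroid, fibroblast and endothelial lists reached at most 0.445, 1.11, 0.57, 1.28 and 4.03 CPM, and the hepatocyte list 5.9 to 10.5 CPM with Ttr at 0. The neutrophil and dendritic cell lists were lower in both groups with TGFβ (neutrophil 3.27 to 5.97 CPM against 13.1 to 16.9 CPM, dendritic 1.23 to 2.53 against 3.85 to 5.65). These sums were made up mostly of S100a8 (group means of 13.8 CPM untreated, 3.07 with TGFβ, 15.4 with Pam3 and 3.98 with both) and Zbtb46 (4.64, 1.42, 4.11 and 1.55), while S100a9 was higher with TGFβ (0.253, 0.993, 0.50 and 1.16). The T and NK cell list was highest in the group with both agents, where Tnf and Tnfsf10 were highest too: it summed to 2.95 to 3.67 CPM there and to at most 1.61 CPM elsewhere, with Cd247 at 2.36 CPM against 0.408 to 0.449 in the other group means and Trac, at 0.299 CPM, counted in that group only. Of its other markers, Klrb1c was highest with TGFβ alone (1.10 CPM, against 0.601 with both) and Cd3d was at most 0.0321 CPM in the group means. The hepatocyte list was also highest there, at 8.49 to 10.5 CPM against at most 7.88, and was almost all Afp (5.77, 5.90, 7.02 and 9.27 CPM in the same order of groups as for S100a8), with Apoa2 at 0.179 to 0.30 CPM in the group means. The part of these lists in the results was not tested.

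Promoter sequences were available for 7 of the 9 members and not for Tnfsf9 and Tnfsf12. The 250 bases before the annotated start of 5 of them are shown 5′ to 3′: Tnf, Tnfsf10, Tnfrsf1b and Fas, the members that Pam3 raised both without and with TGFβ, and Tnfsf13b, the one member that TGFβ alone raised. They come from a RefSeq table of build GRCm38.p6 and each was found once in GRCm39, whose coordinates are given. Capitals mark matches, on either strand, to 2 motifs of interferon regulatory factors (the IRF core AANNGAAA, and the interferon-stimulated response element core, written as GAAA, any 2 bases and GAAA, in which the former can overlap) and to the AP-1 motif TGANTCA.
Tnf (chr17:35420984-35421233, minus strand): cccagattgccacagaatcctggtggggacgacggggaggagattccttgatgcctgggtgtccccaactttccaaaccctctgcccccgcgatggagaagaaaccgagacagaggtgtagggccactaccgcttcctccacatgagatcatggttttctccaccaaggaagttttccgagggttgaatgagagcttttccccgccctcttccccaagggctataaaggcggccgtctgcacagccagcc
Tnfsf10 (chr3:27370976-27371225, plus strand): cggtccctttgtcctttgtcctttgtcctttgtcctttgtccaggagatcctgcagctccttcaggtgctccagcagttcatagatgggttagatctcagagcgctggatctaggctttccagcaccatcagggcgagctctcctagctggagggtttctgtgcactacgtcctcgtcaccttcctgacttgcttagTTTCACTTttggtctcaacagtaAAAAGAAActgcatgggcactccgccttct
Tnfrsf1b (chr4:144973441-144973690, minus strand): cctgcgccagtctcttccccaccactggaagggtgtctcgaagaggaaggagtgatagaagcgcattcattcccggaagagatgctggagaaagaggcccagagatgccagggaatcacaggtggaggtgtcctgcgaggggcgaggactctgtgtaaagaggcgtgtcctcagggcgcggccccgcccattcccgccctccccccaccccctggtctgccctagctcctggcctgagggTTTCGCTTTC
Fas (chr19:34267809-34268058, plus strand): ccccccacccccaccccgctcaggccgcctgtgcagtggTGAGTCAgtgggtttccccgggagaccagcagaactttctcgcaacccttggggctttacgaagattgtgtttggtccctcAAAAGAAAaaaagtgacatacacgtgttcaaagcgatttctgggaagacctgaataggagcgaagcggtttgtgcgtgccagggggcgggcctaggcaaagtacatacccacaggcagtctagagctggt
Tnfsf13b (chr8:10056383-10056632, plus strand): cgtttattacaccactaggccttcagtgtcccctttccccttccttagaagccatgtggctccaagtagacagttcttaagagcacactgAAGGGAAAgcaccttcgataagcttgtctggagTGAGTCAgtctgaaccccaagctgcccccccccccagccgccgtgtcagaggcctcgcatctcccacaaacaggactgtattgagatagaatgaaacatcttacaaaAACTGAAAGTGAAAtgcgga
The Tnf window held no match to any of these, nor to the NF-κB consensus decamer or the SMAD palindrome GTCTAGAC, which were searched in the same way. Tnfsf10 had IRF core matches beginning 53 and 30 bases before the RefSeq start, which lies 193 bases inside the GENCODE gene, and the Tnfrsf1b window ended in an interferon-stimulated response element core (TTTCGCTTTC) beginning 10 bases before the RefSeq start, at 144973440, which lies inside the GENCODE gene that starts at 144973477. Fas, whose RefSeq start lies 58 bases inside the GENCODE gene, had an AP-1 match 211 bases and an IRF core match 130 bases before the start. Tnfsf13b held IRF core matches at 160, 20 and 14 bases, an AP-1 match at 127 bases and an interferon-stimulated response element core (GAAAGTGAAA) at 16 bases before the second of its annotated starts, which lies 166 bases inside the GENCODE gene and is the one shown. The 250 bases before its first start, which is the GENCODE gene start, held no match. Of the windows not shown, that of Tnfrsf1a, whose RefSeq start lies 1120 bases inside the GENCODE gene, held no match and that of Tnfsf14 an AP-1 match 160 bases before the start. Of all 32851 promoter windows of 300 bases (250 before the start and 50 after), 23.9% held an IRF core, 3.44% the longer core, 7.81% an AP-1 motif, 8.46% the NF-κB decamer and 0.213% the SMAD palindrome. A match is a run of letters and not a measured binding site.

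Tnf encodes the founding cytokine of the family and lies in the major histocompatibility complex (ENSMUSG00000024401.15, GRCm39 chr17:35418357-35420983, minus strand, 4 exons). Its 3 libraries read 59.3, 76.4 and 59.9 CPM in untreated cells, 20.6, 20.2 and 18.2 CPM with TGFβ, 151, 141 and 144 CPM with Pam3, and 234, 217 and 201 CPM with Pam3+TGFβ. The groups did not overlap, and the order ran from TGFβ through untreated and Pam3 to Pam3+TGFβ. Pam3 without TGFβ raised Tnf 2.23-fold (log2 fold change 1.16, SE 0.0832, adjusted p = 1.42e-08). Pam3 with TGFβ raised it 11.0-fold (log2 3.46, SE 0.0918, adjusted p = 1.69e-15). The cells thus started from a lower level with TGFβ (log2 -1.73, SE 0.0887, adjusted p = 1.37e-11) and ended at a higher one after Pam3 (log2 0.58, SE 0.0812, adjusted p = 1.14e-05). The interaction was 2.31 on the log2 scale (SE 0.12, adjusted p = 1.79e-10), and the group with both agents lay 3.33-fold above untreated cells.

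Tnfsf10 encodes TRAIL, a ligand that triggers apoptosis through death receptors and is known as an interferon-inducible gene (ENSMUSG00000039304.13, chr3:27371033-27396576, plus strand, 5 exons). It read 2.08, 1.66 and 1.68 CPM in untreated cells, 0.83, 1.16 and 0.865 CPM under TGFβ, 2.73, 2.87 and 2.70 CPM under Pam3, and 10.1, 10.2 and 12.3 CPM under both agents. All 3 libraries with both agents stood well above the other 9, and no groups overlapped. Pam3 with TGFβ raised Tnfsf10 11.3-fold (log2 3.50, SE 0.183, adjusted p = 2.66e-14), against 1.53-fold without TGFβ (log2 0.61, SE 0.179, adjusted p = 0.0163). The difference between these responses was 2.89 on the log2 scale (SE 0.257, adjusted p = 4.68e-09). TGFβ lowered Tnfsf10 without Pam3 (log2 -0.92, adjusted p = 0.000431) and raised it with Pam3 (log2 1.97, SE 0.162, adjusted p = 1.56e-10). The smaller response, without TGFβ, lost its call without untreated replicate 2 (adjusted p = 0.0542), without Pam3 replicate 2 (adjusted p = 0.0529), and when only the libraries compared were fitted (adjusted p = 0.0584).

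**Figure D1:**
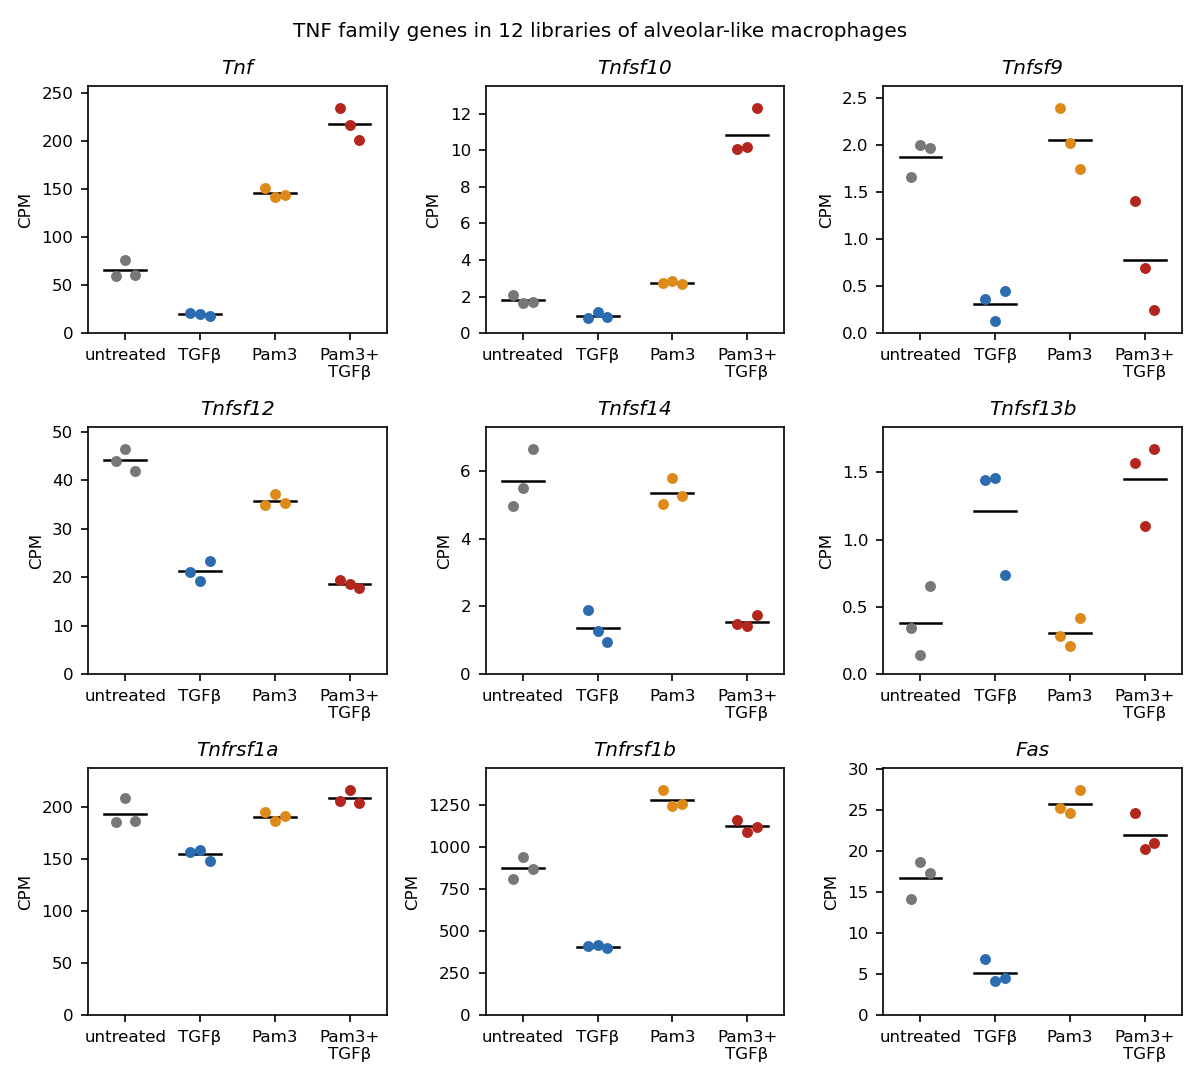
Level of each of the 9 genes in CPM (linear axis from 0) in the untreated, TGFβ, Pam3 and Pam3+TGFβ groups, with each library as a point and the mean of 3 libraries as a bar. Tnf and Tnfsf10 are highest in the group given both agents, Tnfsf12 and Tnfsf14 are low in both groups with TGFβ, and Tnfsf13b is high in them.

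The other 4 ligands all passed the test for TGFβ, without Pam3 and with it, and none of them passed the interaction. Tnfsf14 encodes LIGHT, a ligand of the herpesvirus entry mediator and the lymphotoxin β receptor (ENSMUSG00000005824.9, chr17:57496451-57501177, minus strand, 4 exons). It read 4.97, 5.49 and 6.64 CPM in untreated cells, 1.88, 1.28 and 0.943 CPM under TGFβ, 5.02, 5.79 and 5.27 CPM under Pam3, and 1.48, 1.42 and 1.74 CPM under both agents. The libraries fell into a high level without TGFβ and a low level with it, and within each level the groups with and without Pam3 overlapped. TGFβ lowered Tnfsf14 4.17-fold without Pam3 (log2 -2.06, SE 0.212, adjusted p = 7.91e-09) and 3.45-fold with Pam3 (log2 -1.79, SE 0.209, adjusted p = 8.92e-08). The Pam3 differences were -0.09 (approximate 95% interval -0.46 to 0.28) without TGFβ and 0.19 (-0.26 to 0.63) with it, and neither passed the test.

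Tnfsf12 encodes TWEAK, which acts through the receptor Fn14 (ENSMUSG00000097328.9, chr11:69577076-69586928, minus strand, 7 exons). It read 44.1, 46.4 and 41.9 CPM in untreated cells, 21.0, 19.3 and 23.4 CPM under TGFβ, 35.0, 37.1 and 35.3 CPM under Pam3, and 19.4, 18.6 and 17.8 CPM under both agents. Every library with TGFβ was below every library without it, and the 2 groups with TGFβ overlapped. TGFβ lowered Tnfsf12 2.08-fold without Pam3 (log2 -1.06, SE 0.0771, adjusted p = 1.29e-11) and 1.93-fold with Pam3 (log2 -0.95, SE 0.0779, adjusted p = 1.6e-10). It was also the one member that Pam3 lowered, by a log2 change of -0.30 (SE 0.0754, adjusted p = 0.00532) without TGFβ. With TGFβ the Pam3 difference of -0.19 (SE 0.0787, adjusted p = 0.058) did not pass. It passed without untreated replicate 1, TGFβ replicate 2 or Pam3+TGFβ replicate 1, with values of -0.21, -0.27 and -0.24, and with upper-quartile scaling at -0.25. A readthrough gene, Tnfsfm13, shares 980 bases (52.35%) of the Tnfsf12 exons and had no counts in any of the 12 libraries, so the split of reads between these annotations is uncertain.

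Tnfsf9 encodes 4-1BBL, the ligand of the costimulatory receptor 4-1BB (ENSMUSG00000035678.10, chr17:57412298-57414769, plus strand, 3 exons). It was thinly covered, with 63, 83 and 69 counts in untreated cells, 13, 5 and 17 with TGFβ, 92, 76 and 55 with Pam3, and 48, 26 and 11 with both. As levels these were 1.66, 2.00 and 1.97 CPM, then 0.36, 0.123 and 0.445 CPM, then 2.39, 2.02 and 1.75 CPM, and 1.40, 0.696 and 0.248 CPM. Untreated and Pam3 libraries overlapped, and the group with both agents spread from within the TGFβ range up to near the untreated one. TGFβ lowered Tnfsf9 without Pam3 (log2 -2.60, SE 0.479, adjusted p = 7.17e-05) and with Pam3 (log2 -1.42, SE 0.436, adjusted p = 0.0098). The latter was -2.14 without Pam3+TGFβ replicate 1 and was lost without Pam3+TGFβ replicate 3 (log2 -0.97, adjusted p = 0.06). Pam3 with TGFβ gave 1.31 (SE 0.498, adjusted p = 0.0405). That call was lost without untreated replicate 1, TGFβ replicate 1 or 2, Pam3 replicate 2, or Pam3+TGFβ replicate 1 or 2, with values from 0.57 (adjusted p = 0.432, without Pam3+TGFβ replicate 1) to 1.41. It was also lost when only the libraries compared were fitted (1.32, adjusted p = 0.0738) and with limma-trend on the authors' values (1.12, adjusted p = 0.0741). The Pam3 difference without TGFβ, 0.13, and the interaction, 1.18 (SE 0.645, adjusted p = 0.26), did not pass. With 1 library left out the interaction ran from 0.44 to 1.6 and did not pass either. An antisense gene, Gm11110, overlaps 192 bases (14.45%) of its exons and had 0 to 34 counts per library, and the strand setting of the counting is not stated.

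Tnfsf13b encodes BAFF, a survival factor for B cells (ENSMUSG00000031497.12, chr8:10056467-10089072, plus strand, 7 exons). It was the one member higher with TGFβ alone, at low counts: 13, 6 and 23 counts in untreated cells, 52, 59 and 28 with TGFβ, 11, 8 and 13 with Pam3, and 54, 41 and 74 with both. These correspond to 0.342, 0.144 and 0.656 CPM, to 1.44, 1.46 and 0.734 CPM, to 0.286, 0.212 and 0.413 CPM, and to 1.57, 1.10 and 1.67 CPM. Every library with TGFβ exceeded every library without it, although untreated replicate 3 and TGFβ replicate 3 came close to each other. The TGFβ effect was 1.68 without Pam3 (SE 0.476, adjusted p = 0.00456) and 2.25 with Pam3 (SE 0.489, adjusted p = 0.000451), and the former was 2.31 without untreated replicate 3. Pam3 did not pass the test without TGFβ (log2 -0.32, approximate 95% interval -1.34 to 0.71) or with it (0.26, -0.59 to 1.11). With 1 library left out these differences ran from -0.72 to 0.31 and from -0.02 to 0.41, and none passed.

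Tnfrsf1b encodes TNFR2, the TRAF-binding TNF receptor without a death domain (ENSMUSG00000028599.12, chr4:144938938-144973477, minus strand, 10 exons). It was the most abundant member per exon length in all 4 groups. Its libraries read 807, 940 and 870 CPM in untreated cells, 409, 413 and 397 CPM with TGFβ, 1334, 1241 and 1253 CPM with Pam3, and 1159, 1090 and 1118 CPM with both. The groups did not overlap, and the Pam3 group was the highest. Pam3 raised Tnfrsf1b 2.76-fold with TGFβ (log2 1.46, SE 0.0571, adjusted p = 8.26e-17) and 1.46-fold without it (log2 0.55, SE 0.0561, adjusted p = 5.75e-08). The interaction was 0.92 (SE 0.0793, adjusted p = 3e-09). TGFβ lowered it without Pam3 (log2 -1.10, SE 0.0567, adjusted p = 1.23e-14) and, by a small amount, with Pam3 (log2 -0.18, SE 0.0559, adjusted p = 0.00851). The small difference was lost without Pam3 replicate 1 (log2 -0.15, adjusted p = 0.0658).

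Tnfrsf1a encodes TNFR1, the death domain receptor through which soluble TNF signals in most cells (ENSMUSG00000030341.19, chr6:125325566-125339632, plus strand, 10 exons). It read 186, 209 and 187 CPM in untreated cells, 157, 159 and 148 CPM under TGFβ, 195, 187 and 192 CPM under Pam3, and 207, 216 and 204 CPM under both agents. Only the TGFβ group stood clear of the rest, while untreated cells overlapped with both Pam3 groups. TGFβ lowered Tnfrsf1a 1.25-fold (log2 -0.32, SE 0.0485, adjusted p = 3.47e-06), and Pam3 with TGFβ raised it 1.35-fold (log2 0.43, SE 0.0485, adjusted p = 6.15e-08). Without TGFβ the Pam3 difference was -0.02 (approximate 95% interval -0.12 to 0.07) and did not pass, and the interaction was 0.45 (SE 0.0684, adjusted p = 2.35e-05). Its difference between both agents and Pam3 alone, 0.13 (adjusted p = 0.034), was lost without Pam3 replicate 2 or 3 or Pam3+TGFβ replicate 1 or 2 (0.11 to 0.14, adjusted p up to 0.112). It was also lost with upper-quartile scaling (0.11, adjusted p = 0.0592).

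The ratio of the TNF receptors followed the larger changes of Tnfrsf1b. Per kilobase of exon, Tnfrsf1b exceeded Tnfrsf1a 2.86 ± 0.0935-fold in untreated cells, 1.67 ± 0.0271-fold under TGFβ, 4.24 ± 0.0944-fold under Pam3 and 3.42 ± 0.193-fold under both agents (SD, n = 3). The groups did not overlap in this ratio: it lay between 2.76 and 2.95 in untreated libraries, 1.65 and 1.70 with TGFβ, 4.16 and 4.34 with Pam3, and 3.20 and 3.57 with both. The ratio combines genes whose own differences are tested above and was not tested again.

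Fas encodes the death receptor CD95 (ENSMUSG00000024778.15, chr19:34268001-34305173, plus strand, 9 exons). It read 14.2, 18.7 and 17.3 CPM in untreated cells, 6.86, 4.17 and 4.53 CPM under TGFβ, 25.3, 24.6 and 27.4 CPM under Pam3, and 24.6, 20.3 and 21.0 CPM under both agents. The TGFβ libraries were the lowest and the groups did not overlap, although the highest library with both agents nearly met the lowest with Pam3. Pam3 raised Fas 4.24-fold with TGFβ (log2 2.08, SE 0.149, adjusted p = 1.51e-09) and 1.54-fold without it (log2 0.62, SE 0.134, adjusted p = 0.00267), with an interaction of 1.46 (SE 0.2, adjusted p = 3.24e-05). TGFβ lowered Fas without Pam3 (log2 -1.69, SE 0.15, adjusted p = 1.92e-08), and with Pam3 its difference of -0.23 (SE 0.133, adjusted p = 0.172) did not pass. That difference passed when only the libraries compared were fitted (adjusted p = 0.0212). The Fas ligand gene, Fasl, had no count in any library, where 3 counts correspond to 0.0678 to 0.0953 CPM.

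**Figure D2:**
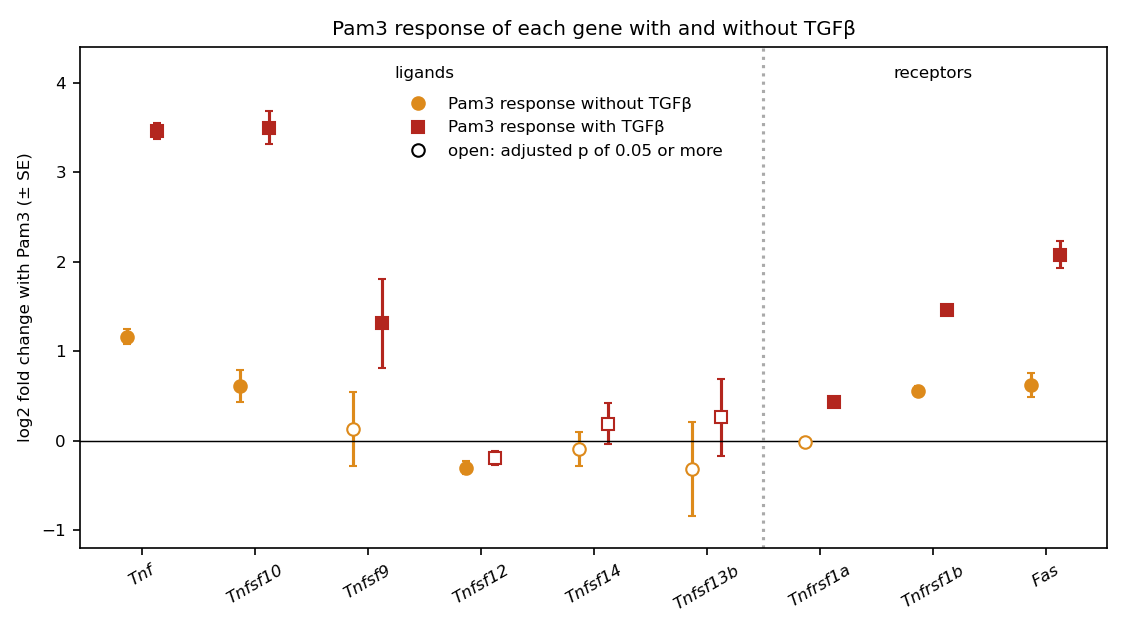
Log2 fold change of each of the 9 genes for Pam3 without TGFβ and Pam3 with TGFβ, from the edgeR fit to 12 libraries, with bars of ± SE and open symbols where the adjusted p was 0.05 or more. Tnf (1.16 and 3.46), Tnfsf10 (0.61 and 3.50), Fas (0.62 and 2.08), Tnfrsf1b (0.55 and 1.46) and Tnfrsf1a (-0.02 and 0.43) are the genes whose responses differed by the interaction test.

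Compared with untreated cells, the group with both agents had 5 members higher and 3 lower, where 52.1% of all tested genes passed (25.0% higher, 27.2% lower). Tnf (log2 1.74), Tnfsf10 (2.59), Tnfsf13b (1.94), Tnfrsf1b (0.36) and Fas (0.39) were higher, and Tnfsf9 (-1.29), Tnfsf12 (-1.25) and Tnfsf14 (-1.87) were lower. Tnfrsf1a (0.11, adjusted p = 0.0678) did not pass. It passed in 6 alternatives: without untreated replicate 2 (0.17, adjusted p = 0.00127) or TGFβ replicate 3 (0.11, adjusted p = 0.0456), with DESeq2-type size factors (adjusted p = 0.0398), with at least 10 counts in every library (adjusted p = 0.0132), with DESeq2 (adjusted p = 0.0463) and with limma-trend (adjusted p = 0.031). The Fas call was lost without untreated replicate 1 (0.29, adjusted p = 0.0953) or Pam3+TGFβ replicate 1 (0.31, adjusted p = 0.0972). The Tnfsf9 call was lost without Pam3+TGFβ replicate 2 (-1.21, adjusted p = 0.0576) or replicate 3 (-0.84, adjusted p = 0.0953) and was -2.00 without replicate 1, and Tnfsf13b was 2.58 without untreated replicate 3.

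Levels between genes can be compared only per exon length, and roughly, since reads across exon junctions can be lost. That of Tnfsf12 is uncertain, as 52.35% of its exons are shared with the readthrough gene Tnfsfm13. In untreated cells Tnfrsf1b (176 CPM per kb) was followed by Tnfrsf1a (61.6), Tnf (39.8), Tnfsf12 (23.6), Fas (7.21), Tnfsf14 (3.02), Tnfsf9 (1.41), Tnfsf10 (0.334) and Tnfsf13b (0.0554). Tnf exceeded Tnfrsf1a with Pam3 (88.7 against 60.7 CPM per kb) and with both agents (133 against 66.4). With both agents Tnfsf10 (2.01) also exceeded Tnfsf14 (0.82) and Tnfsf9 (0.587). In the TGFβ group Tnf, at 12 CPM per kb, was close to Tnfsf12 at 11.3. Tnfsf10 and Tnfsf13b were level with each other there, at 0.176 CPM per kb each.

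Receptors of the member ligands, chosen by role, were measured in the same libraries. Tnfrsf12a, which encodes Fn14, the receptor of TWEAK, rose with TGFβ where Tnfsf12 fell: it stood at 6.78 ± 0.874 CPM in untreated cells, 16.7 ± 1.91 under TGFβ, 6.24 ± 1.23 under Pam3 and 19.0 ± 0.837 under both agents (SD, n = 3). Its TGFβ effect was 1.30 without Pam3 (SE 0.122, adjusted p = 2.02e-09) and 1.60 with Pam3 (SE 0.124, adjusted p = 5.84e-11), and its Pam3 differences did not pass. Tnfrsf13b, which encodes TACI, a receptor of BAFF, fell with TGFβ where Tnfsf13b rose, from 42.4 ± 2.3 to 22.5 ± 2.23 CPM without Pam3 (log2 -0.91, adjusted p = 1.57e-09) and from 34 ± 3.32 to 16.2 ± 0.948 CPM with Pam3 (log2 -1.07, adjusted p = 1.45e-10). Of the other BAFF receptors, Tnfrsf13c had at most 1 count in a library and Tnfrsf17 had none.

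Tnfrsf14, which encodes the herpesvirus entry mediator that binds LIGHT, fell with TGFβ like its ligand, from 25.7 ± 0.945 to 3.24 ± 0.898 CPM without Pam3 (log2 -2.98, adjusted p = 2e-15) and from 30.5 ± 3.03 to 6.75 ± 0.285 CPM with Pam3 (log2 -2.18, adjusted p = 2.04e-13). Ltbr, the other receptor of LIGHT, was at 96.7 to 109 CPM in the means of the 4 groups. Tnfrsf10b, which encodes the mouse TRAIL death receptor, was below its untreated level in the group with both agents (log2 -1.68, adjusted p = 1.68e-07), where Tnfsf10 was above it: it stood at 4.30 ± 0.145 CPM in untreated cells, 0.861 ± 0.0504 under TGFβ, 3.59 ± 0.295 under Pam3 and 1.35 ± 0.246 under both agents. The TRAIL decoy receptors Tnfrsf22 and Tnfrsf23, at 26.8 to 38.7 and 68.2 to 86.0 CPM in group means, are near-identical paralogs whose reads could be split between them and are uncertain. Tnfrsf9, which encodes 4-1BB, rose with Pam3 from 0.63 ± 0.248 to 1.52 ± 0.569 CPM without TGFβ (log2 1.27, adjusted p = 0.0292) and from 0.178 ± 0.113 to 3.43 ± 1.19 CPM with it (log2 4.26, adjusted p = 4.7e-08). The call without TGFβ was lost without untreated replicate 1 or 2 or Pam3 replicate 1 or 3 (log2 0.99 to 1.25, adjusted p 0.075 to 0.151) and with limma-trend on the authors' values (adjusted p = 0.0648). Per kilobase it was below its ligand Tnfsf9 in untreated cells (0.231 against 1.41) and above it in the mean with both agents (1.26 against 0.587), where the SD over 3 libraries was 0.436 for Tnfrsf9 and 0.435 for Tnfsf9.

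**Figure D3:**
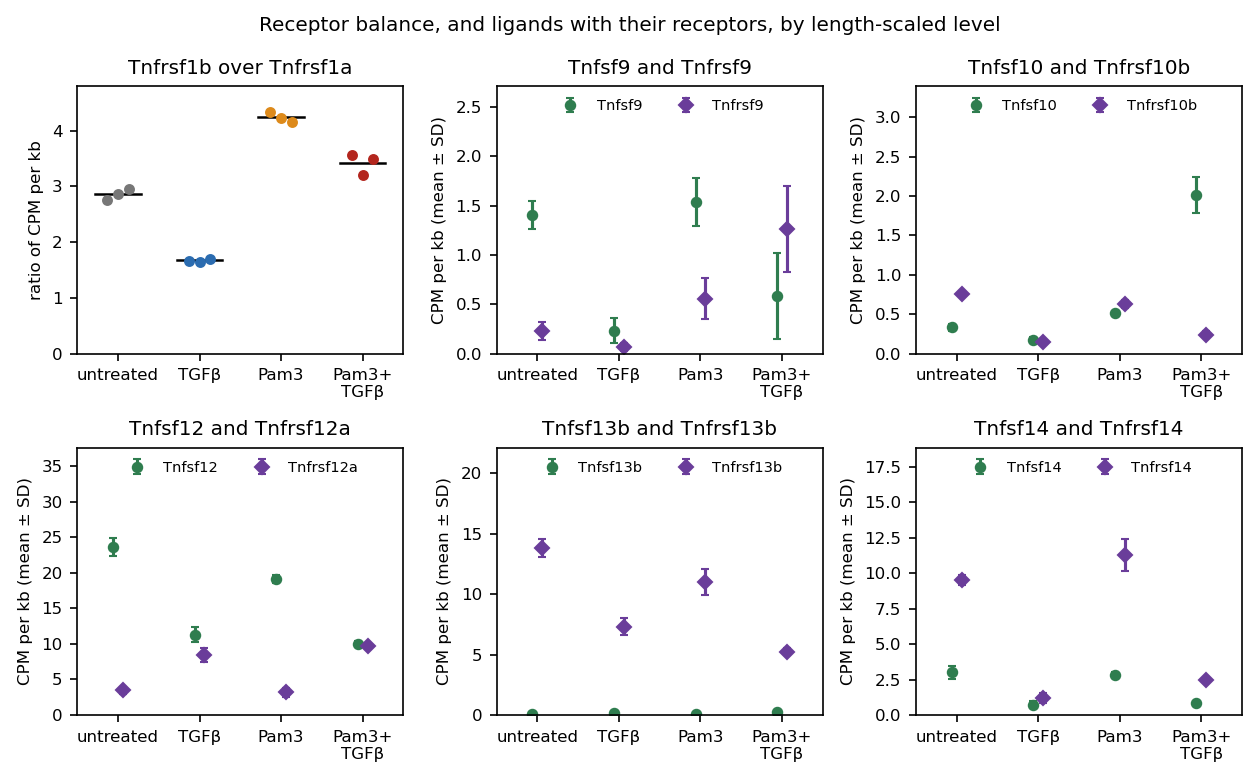
Left: the ratio of Tnfrsf1b to Tnfrsf1a in CPM per kb for each library, with group means as lines. Other panels: mean CPM per kb ± SD (n = 3) of 5 ligands and a receptor of each in the 4 groups, in which Tnfsf12 and Tnfrsf12a, and Tnfsf13b and Tnfrsf13b, move in opposite directions with TGFβ, and Tnfsf14 and Tnfrsf14 in the same direction.

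The other ligands were sparse. Of 12 other ligand genes listed, 4 had enough counts to be tested, and Fasl, Cd40lg, Cd70 and Tnfsf11 had none in any library. Tnfsf15, which encodes TL1A, a ligand of death receptor 3, was the one of these 4 that passed the interaction, and Tnfsf8 (1.02, adjusted p = 0.0817) passed it without Pam3+TGFβ replicate 2 (1.23, adjusted p = 0.0328). Tnfsf15 stood at 8.95 ± 0.619 CPM in untreated cells, 0.491 ± 0.326 under TGFβ, 17.9 ± 0.696 under Pam3 and 35.9 ± 5.26 under both agents, the same order of groups as Tnf. Its Pam3 response was 1.00 without TGFβ (SE 0.163, adjusted p = 0.000388) and 6.21 with it (SE 0.239, adjusted p = 5.15e-12). The former was not called with limma-trend on the authors' values (log2 1.00, adjusted p = 0.254), nor was the difference between both agents and Pam3 alone (log2 1.01, adjusted p = 0.153). Tnfsf8, which encodes CD30 ligand, was lowered by TGFβ (log2 -2.99 and -1.97 without and with Pam3), and Tnfsf13, which encodes APRIL, passed in no comparison (1.09 to 1.36 CPM in group means). Tnfsf13 lies next to Tnfsf12 on the same strand. Its overlap with the readthrough gene Tnfsfm13 was not examined, so its level is uncertain. Of 25 other receptor genes 17 were tested. With TGFβ alone 3 were higher and 8 lower, where 51.0% of all tested genes were called. With Pam3 alone 2 were higher and 2 lower, a share near the 18.3% called over all genes. With Pam3 on top of TGFβ 9 were higher and 3 lower (38.5% over all genes), and 6 passed the interaction in the positive direction and none in the negative (10.3% and 5.67% over all genes). Their median log2 fold changes were -0.20, 0.04 and 0.19. The 4 receptor calls with Pam3 alone became 2 without untreated replicate 1 and 1 without Pam3 replicate 1, and the 6 interaction calls became 3 without Pam3+TGFβ replicate 1. With upper-quartile scaling 5 of these interactions were positive and 1 negative. Cd40, the costimulatory receptor of antigen-presenting cells, had 493 counts summed over the group with both agents and 4 over the TGFβ group, a ratio of rates of 122 with a 95% counting interval of 47.3 to 449.5, which covers counting error only. The interaction of Cd40 was 4.51 (SE 0.947, adjusted p = 0.00121), and 5.75 without TGFβ replicate 1, a fitted size that depends on the prior count since no TGFβ library had more than 3 counts.

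Among 33 genes that act below the TNF and death receptors, all tested, Pam3 raised 10 and lowered 2 without TGFβ (9.62% and 8.66% over all genes) and raised 17 and lowered 2 with it (20.4% and 18.1%). TGFβ alone raised 3 and lowered 13, a share called near the 51.0% of all genes. The interaction was positive for 12 of the 33 and negative for Map3k14 (-0.50), which Pam3 lowered with TGFβ (log2 -0.68, adjusted p = 7.08e-06) and for which the difference without TGFβ (-0.18) did not pass. Over all genes 10.3% were positive and 5.67% negative. The list had a median interaction of 0.15, against 0.00 over all genes. Tnfaip3, which encodes A20, an inhibitor of NF-κB signalling, stood at 43.5 ± 2.55 CPM in untreated cells, 15.9 ± 0.378 under TGFβ, 69.6 ± 3.42 under Pam3 and 120 ± 6.47 under both agents (SD, n = 3), again in the order seen for Tnf. Its interaction was 2.24 (SE 0.0889, adjusted p = 4.93e-15). Its binding partner Tnip1 went from 98.6 ± 0.321 CPM with TGFβ to 392 ± 11.2 with both, and from 137 ± 15.8 in untreated cells to 222 ± 8.14 with Pam3 (interaction 1.30, SE 0.0808). Traf1, a TRAF adaptor of TNFR2, responded by 1.38 without TGFβ and by 5.45 with it, and its TGFβ libraries had only 2 to 4 counts each. Mlkl, the executor of necroptosis, responded by 0.31 and by 1.51.

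Of 17 genes listed for control of Tnf mRNA or for shedding of TNF and its receptors, 16 were tested. TGFβ alone raised 7 and lowered 6, Pam3 alone raised 5 and lowered 2, and Pam3 with TGFβ raised 8 and lowered 5, where 51.0%, 18.3% and 38.5% of all genes were called. The interaction was positive for 6 and negative for 3 (Tia1, Zfp36l2 and Adam10), against 10.3% and 5.67% of all genes, and with both agents 9 were above untreated cells and 6 below (25.0% and 27.2% of all genes). Zfp36, which encodes tristetraprolin, a protein that destabilises Tnf mRNA, stood at 67.5 ± 2.16 CPM in untreated cells, 31.5 ± 0.979 under TGFβ, 64.7 ± 3.39 under Pam3 and 46.6 ± 3.27 under both agents. With both agents it was below untreated cells (log2 -0.54, SE 0.0627, adjusted p = 6.94e-08). Of its paralogs, Zfp36l1 was also lower there (log2 -1.22, adjusted p = 9.8e-07), and the far more abundant Zfp36l2 was lower by little (log2 -0.15, 490.9 against 543.4 CPM, adjusted p = 0.0257), a call lost without untreated replicate 1 or 3 or Pam3+TGFβ replicate 1 or 2 (adjusted p up to 0.161), with at least 10 counts in every library (adjusted p = 0.0603) and when only the libraries compared were fitted (adjusted p = 0.0616). Zc3h12a, which encodes Regnase-1, a ribonuclease that degrades inflammatory mRNAs, was higher (log2 1.31, 116 against 46.6 CPM, adjusted p = 3.43e-15). Mapkapk2, which encodes the kinase MK2 that inhibits tristetraprolin, rose with Pam3 without TGFβ (log2 0.45) and with it (log2 1.12). TGFβ lowered Mapkapk2 without Pam3 (log2 -0.94, adjusted p = 4.23e-12) and with Pam3 (log2 -0.27, 484.9 against 586.1 CPM, adjusted p = 0.000722). Tia1, which encodes a translational repressor of Tnf mRNA, was raised by TGFβ (log2 0.77, adjusted p = 1.21e-09) and lowered by Pam3 with TGFβ (log2 -0.59, adjusted p = 2.1e-07). With both agents Tia1 was above Pam3 alone (log2 0.24, adjusted p = 0.00899) and above untreated cells (log2 0.18, adjusted p = 0.0353). The latter call was lost without untreated replicate 2 (adjusted p = 0.226) or any 1 Pam3+TGFβ library. It was also lost with upper-quartile scaling and when only the libraries compared were fitted.

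**Figure D4:**
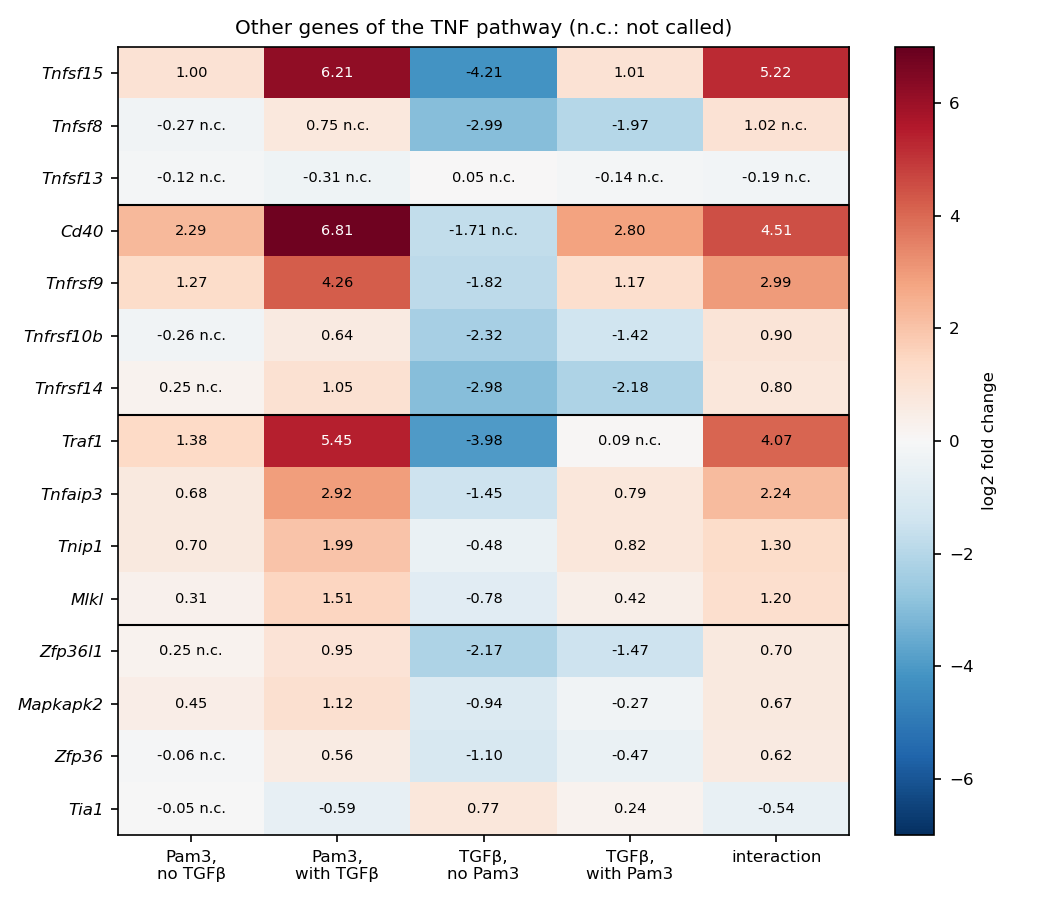
Log2 fold changes (colour scale, red higher, blue lower, values printed, n.c. for not called) of 15 named pathway genes in rows, grouped by list, for 4 comparisons and the interaction in columns. Tnfsf15 (1.00 and 6.21), Traf1 (1.38 and 5.45) and Tnfaip3 (0.68 and 2.92) show a larger Pam3 change with TGFβ than without, and Tia1 is the one row with a negative interaction call.

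The genes whose log2 CPM followed each member most closely over the 12 libraries (Pearson r, among 10909 genes) were found as a description. All libraries belong to the same 4 groups, so any genes with similar group means correlate. One of the genes that followed Tnf was Acod1 (r = 0.994), which encodes the itaconate-producing enzyme of activated macrophages, with mean levels of 9.72 CPM in untreated cells, 0.534 under TGFβ, 55.7 under Pam3 and 133 under both agents. Tnfsf10 was followed by Irf1 (r = 0.988), an interferon regulatory factor, and Cxcl10 (r = 0.987), an interferon-inducible chemokine with 2.39, 0.518, 11.6 and 244.5 CPM in the same order. Tnfrsf1b was followed by Sp100 (r = 0.996), a nuclear body protein gene inducible by interferons, and Ptpre (r = 0.994). Fas was followed by Tfe3 (r = 0.993) and Car13 (r = 0.992), and Tnfrsf1a by Creld1 (r = 0.984) and Tagln2 (r = 0.978). Among the ligands that moved with TGFβ, Tnfsf14 was closest to Aldh7a1 (r = 0.989), Tnfsf12 to Stx2 (r = 0.992), Tnfsf13b to Arfgef3 (r = 0.963) and Tnfsf9 to Ift22 (r = 0.957).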

How the data were processed

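Per the labels' protocols, a stranded mRNA kit and a NovaSeq instrument were used. Per the submitters' processing notes, the authors used bcl2fastq 2.20.0, FastQC 0.11.7, Bowtie2 2.4.1, featureCounts from Subread 2.0.0, and DESeq2 1.36.0 in R 4.2.1, with the build GRCm39. The annotation, strand setting and handling of multiply aligned reads are not given in the sources used here, and Bowtie2 does not split reads over introns, so reads across exon junctions can be lost. The deposited counts are whole numbers per gene symbol and were used for all main tests. The deposited normalized values are a signal scaled by the authors, used only in an alternative.

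Genes were kept with filterByExpr (minimum count 10), scaled with TMM, and tested in R 4.3.3 with edgeR 4.0.16 (quasi-likelihood, robust) over all 12 libraries with 4 group means. Adjusted p-values are Benjamini-Hochberg over 14749 genes, two-sided, with a threshold of 0.05. The interaction subtracts the Pam3 response measured without TGFβ from the one with it. The SE is the size of the log2 fold change divided by the square root of F. CPM uses TMM-scaled library sizes. Approximate 95% intervals of log2 fold changes come from the fitted SE and hold the spread between libraries, while the interval of a ratio of summed counts and floors of 3 counts cover counting error only, since reads carry no molecular identifiers. No replicates were duplicates: all pairs differed beyond sampling noise. Gene positions and exon lengths are from GENCODE M39 (GRCm39), where 32245 of 40847 symbols matched 1 gene. The interaction test was also run on simulated counts, with an outcome that is not reported here. The members and gene lists were chosen with earlier results of these data known. Pathway genes were named by the size of their interaction at a mean of at least 1 CPM, and receptors by role. Alternatives were other scalings, filters and tools (DESeq2 1.42.0, limma 3.58.1 on log2 of the authors' values + 1), a replicate block, fewer libraries, and 2 that treat RNAs without poly(A) tails. A gene whose pattern was like that of Tnf is not reported here.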

Additional observations from a re-analysis of the deposited data

Results flagged for a closer look

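For 5 of the 9 genes the interaction test found that TGFβ altered the size of the response to Pam3 (edgeR, adjusted over all tested genes). The difference of the log2 fold changes was 2.31 for Tnf, 2.89 for Tnfsf10, 0.45 for Tnfrsf1a, 0.92 for Tnfrsf1b and 1.46 for Fas, each larger with TGFβ. Over all tested genes 15.9% passed this test, 10.3% in the positive and 5.67% in the negative direction. In the gene lists around them the same test passed for 1 of 4 ligands, Tnfsf15 (5.22), and for 6 of 17 receptors: Cd40 (4.51), Tnfrsf9 (2.99), Tnfrsf10b (0.90), Tnfrsf14 (0.80), Tnfrsf8 (0.77) and Tnfrsf23 (0.31). Among 33 signalling genes it passed for 12 in the positive direction, of which Traf1 (4.07), Tnfaip3 (2.24), Tnip1 (1.30) and Mlkl (1.20) had the largest values, Cflar (0.82), Birc3 (0.79) and Rnf31 (0.62) followed, and the other 5 lay between 0.22 and 0.45, and for Map3k14 (-0.50) in the negative one. Among 16 genes of mRNA control and shedding it was positive for Zfp36l1 (0.70), Mapkapk2 (0.67), Zfp36 (0.62), Sppl2a (0.48), Adam17 (0.26) and Rhbdf2 (0.23) and negative for Tia1 (-0.54), Zfp36l2 (-0.36) and Adam10 (-0.29). Tnfrsf8, Cflar, Birc3, Rnf31, Map3k14, Sppl2a, Adam17, Rhbdf2, Zfp36l2 and Adam10 here, and Zc3h12a above, fell outside the rule for named genes and were added after their values were seen. The Tnfrsf8 result was lost without untreated replicate 3, TGFβ replicate 1 or 3, Pam3 replicate 3, or Pam3+TGFβ replicate 1 or 3 (0.66 to 0.74), and that of Map3k14 without untreated replicate 3, Pam3 replicate 2 or 3, or Pam3+TGFβ replicate 1 (-0.41 to -0.47). Both were also lost with the share of RNAs lacking poly(A) tails as a covariate (0.72 and -0.47). That of Adam17 was lost without TGFβ replicate 1 or 3 or Pam3+TGFβ replicate 3 (0.21 to 0.22), and that of Rhbdf2 without TGFβ replicate 1 or 2, Pam3 replicate 1 or 2, or any 1 Pam3+TGFβ library (0.19 to 0.22), with upper-quartile scaling (0.18) and with that covariate (0.22). The Tnfrsf10b result was lost when any 1 library except Pam3+TGFβ replicate 3 was left out (0.75 to 0.94), that of Tnfrsf23 without Pam3+TGFβ replicate 1 (0.25), and that of Zfp36l1 without untreated replicate 2 or 3, TGFβ replicate 1 or 3, Pam3 replicate 1 or 2, or Pam3+TGFβ replicate 1 or 3 (0.49 to 0.77). That of Tnfrsf10b was also lost with the replicate block (0.9, adjusted p = 0.0506), with no filter (0.91) and with that covariate (0.9). Upper-quartile scaling lost those of Tnfrsf10b (0.85) and Zfp36l1 (0.66). Cd40 was 5.75 without TGFβ replicate 1.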

How the results depend on the processing

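No called value of the 9 genes changed sign under the alternatives run. Of 1167 values under alternatives, 1131 kept their call, 25 lost it and 11 gained it, and 44 of 54 pairs of gene and comparison kept their call throughout. Interaction calls numbered 5 under each alternative run for them, which leave out the fit to only the libraries compared, since the interaction uses all 4 groups. With 1 library left out, calls ran from 4 to 5 for Pam3 without TGFβ, 5 to 6 for Pam3 with TGFβ, 7 to 8 for TGFβ with Pam3 and 7 to 9 for both agents against untreated cells, and stayed at 9 for TGFβ alone. Requiring at least 10 counts in every library dropped Tnfsf9 and Tnfsf13b and left 7 calls for TGFβ alone. Leaving a group with 2 libraries relies on the spread pooled over all groups.

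Replicate numbers did not pair the samples: same-numbered libraries correlated at -0.174 to 0.3 over 18 pairs, and 5 of 12 libraries correlated best with their own number. For the 9 members the replicate block gave 5, 5, 9, 8, 8 and 5 calls, against 5, 6, 9, 8, 8 and 5 without it, with Tnfsf9 for Pam3 with TGFβ (1.23, adjusted p = 0.0565) as the one member call lost.

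Upper-quartile scaling moved the share of higher calls over all genes from 53.0% to 41.5% for Pam3 with TGFβ and from 64.5% to 53.4% for the interaction, while the median of all genes moved by -0.061 at most. The interactions of Tnfrsf10b and Zfp36l1 were lost in 15 and 9 alternatives. The 4 called receptors for Pam3 alone became 2 with at least 10 counts in every library, since that filter dropped Cd40 and Tnfrsf9, the 2 called higher, from the test. At 5 to 92 counts a library, Tnfsf9 and Tnfsf13b are the members that depth limits most.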
